A study of Mus musculus with 21 samples.

Results

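Chromosome 8 of the mouse was followed gene by gene through 5 embryonic stem (ES) cell lines. The genes were those with a probe set that carried a single gene symbol and that the RefSeq annotation (GRCm38.p6) places on chromosome 8. Of 940 such genes, 683 were kept, and 12891 genes of all chromosomes were tested with them. Where a gene had several probe sets, the one brightest on average across the 21 arrays stood for it. The members were selected on signal: a gene was kept when at least 1 ES line had its 3 arrays each past the 40th percentile of that array. Differences between lines did not enter that rule, although the chromosome itself was chosen by such differences known from earlier results of these data. All 5 lines passed that limit for 553 of the 683 genes, and 130 genes passed through 1 to 4 lines. Of these, 14 passed through R1 alone, 11 through CS1-1, 7 through AH129-5, 4 through AH129-N1 and 4 through AH129-NC1. A gene admitted through 1 line is high there by the rule itself, so its rise in that line is no separate result. Just inside the limit lay Pkd1l2 and Fgl1, 0.01 above it on the log2 scale in the lowest array of their best line, and just outside lay Mc1r (-0.01) and 1700011L22Rik (-0.02).

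The lines were AH129-5, AH129-N1 and AH129-NC1, androgenetic haploid ES cells sorted as haploid cells in G0/G1, and CS1-1 and R1, diploid ES cells for which the labels state no sort. All of them had the 129 Sv background, and N2B27 medium with 2i and LIF was used for every line. Mouse embryonic fibroblasts (MEF) of CD1 background, grown in DMEM with serum, and round sperm of 129 Sv background, taken fresh from testis and sorted as haploid G0/G1 cells, were measured beside them. Every group had 3 arrays labelled as biological replicates. The labels do not say whether these came from separate cultures, and each line is a single line, so a p-value here measures a difference against the spread among arrays and not among lines of one kind.

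Mouse chromosomes have their centromere at one end, and gene order is counted here from that end. Chromosome 8 carries genes that ES cells express. Among them are Zfp42, a zinc finger protein known as the naive pluripotency marker Rex1, and Klf2, a Kruppel-like factor of the naive state. Cdh1, the cell adhesion protein E-cadherin, lies there too. As background, mouse ES cells can gain or lose whole chromosomes in culture, and chromosome 8 is among those reported to be gained. DNA copy number was not measured on these arrays.

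The start regions of 3 members are shown because their genes were higher in R1 than in the other lines and stand for the roles described below, pluripotency (Zfp42 and Klf2) and the growth factor response (Junb). Each is the run of 250 bases before the RefSeq start of the gene (GRCm38.p6), 5′ to 3′ on the strand of the gene. Capitals mark the GC box GGGCGG and the CCAAT box CCAAT, each on either strand. Zfp42 lies on the minus strand (chr8:43307010-43307259), Klf2 on the plus strand (chr8:72318812-72319061) and Junb on the minus strand (chr8:84978749-84978998).
Zfp42: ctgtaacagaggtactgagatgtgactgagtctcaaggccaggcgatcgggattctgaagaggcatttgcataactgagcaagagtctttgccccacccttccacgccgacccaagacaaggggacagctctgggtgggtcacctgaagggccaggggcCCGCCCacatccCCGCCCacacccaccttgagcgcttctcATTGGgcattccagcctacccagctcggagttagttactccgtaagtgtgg
Klf2: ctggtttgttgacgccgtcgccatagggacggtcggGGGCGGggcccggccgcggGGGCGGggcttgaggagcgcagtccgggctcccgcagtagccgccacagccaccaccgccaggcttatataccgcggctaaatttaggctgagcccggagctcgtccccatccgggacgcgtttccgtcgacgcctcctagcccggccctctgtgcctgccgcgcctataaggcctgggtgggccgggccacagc
Junb: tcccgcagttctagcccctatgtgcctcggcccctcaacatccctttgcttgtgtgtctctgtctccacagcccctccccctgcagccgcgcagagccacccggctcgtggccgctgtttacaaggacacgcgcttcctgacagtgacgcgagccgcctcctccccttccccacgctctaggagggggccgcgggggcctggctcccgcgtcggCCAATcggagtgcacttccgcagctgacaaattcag
The Zfp42 region held 2 GC boxes and 1 CCAAT box, that of Klf2 held 2 GC boxes, and that of Junb held 1 CCAAT box.

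R1 stood apart from the other 4 lines over the whole of chromosome 8. Its 683 genes had a median log2 difference of 0.39 against the mean of the other 4 lines, or 1.31-fold, and the middle 50% of genes lay between 0.14 and 0.61. Above 0 lay 571 of them (83.6%). Over all 12891 genes tested the median in R1 was 0.02, and 52.4% lay above 0. The medians of the other 18 autosomes in R1 ran from -0.08 (chromosome 14) to 0.08 (chromosome 6). The X chromosome stood further from 0 than chromosome 8 in R1, at -0.61 over 454 genes with 3.52% called higher. It was at -0.73 in CS1-1, the other diploid line, and at 0.48, 0.49 and 0.45 in AH129-5, AH129-N1 and AH129-NC1. With 3 R1 arrays taken singly, the chromosome 8 median was 0.39, 0.39 and 0.40.

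Gene by gene, limma with Benjamini-Hochberg adjustment over all genes tested called 423 of the 683 genes higher in R1 (61.9%) and 31 lower (4.54%) at an adjusted p under 0.05. Over all genes tested, 25.1% were called higher and 23.2% lower in R1. In the other 18 autosomes the share called higher ran from 18.6% to 29.4%. The 3 R1 arrays lay above all 12 other ES arrays for 245 members (35.9%), against 7.59% of all genes tested, and below them for 5 (0.732%), against 5.74%. Because the filter admits a gene through the line where it is high, the counts were also taken without it: of all 940 genes, 416 were higher (44.3%), 33 were lower (3.51%) and the median was 0.31, against 17.1% higher and 15.9% lower of all 18193 genes. Among the 553 genes that passed in every line, 394 were higher and 27 lower, with a median of 0.39. The matching share over all genes that passed in every line was not taken. The 25.1% above also covers dim genes. On the other autosomes, 9.69% of genes were called higher in the dimmest range of signal and 32.1% in the brightest.

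**Figure D1:**
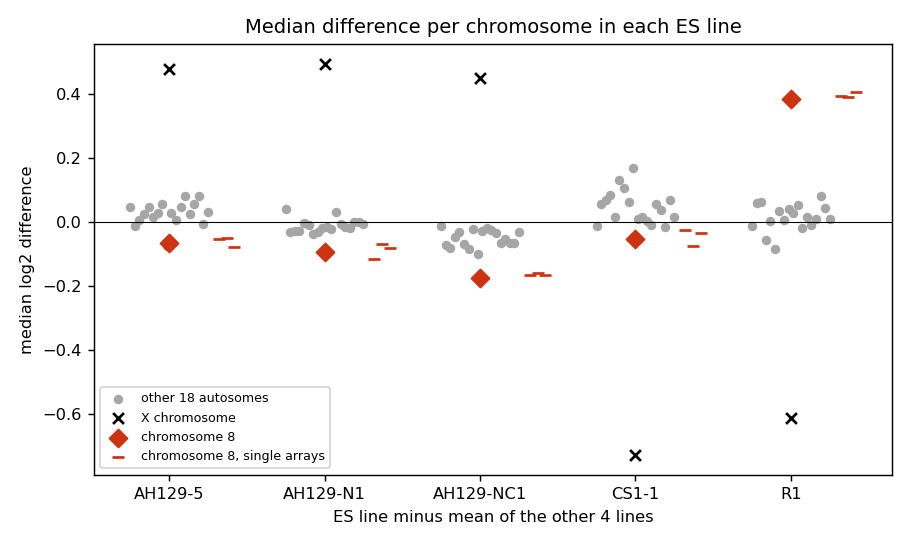
Median log2 difference of each line from the mean of the other 4 lines, for chromosome 8 (diamonds; short bars are single arrays), the other 18 autosomes (grey points) and the X chromosome (crosses). In R1 chromosome 8 lies at 0.39 while the other autosomes lie between -0.08 and 0.08.

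Most differences in R1 were modest. Between 0.25 and 0.75 on the log2 scale lay 358 members (52.4%), against 19.4% of the genes of the other 18 autosomes. Only 36 members were called higher at 2-fold or more (5.27%, against 2.5% of all genes tested), and 3 were called lower at that size (0.439%, against 3.2%). Sorted by mean signal over the 15 ES arrays into 5 groups of 136 or 137 genes, the median difference was 0.26 in the dimmest group, then 0.34, 0.39 and 0.45, and 0.39 in the brightest. The share called higher went over the same groups from 22.6% to 87.6%, while among genes of the other autosomes in the same ranges of signal it ran from 9.69% to 32.1%.

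**Figure D2:**
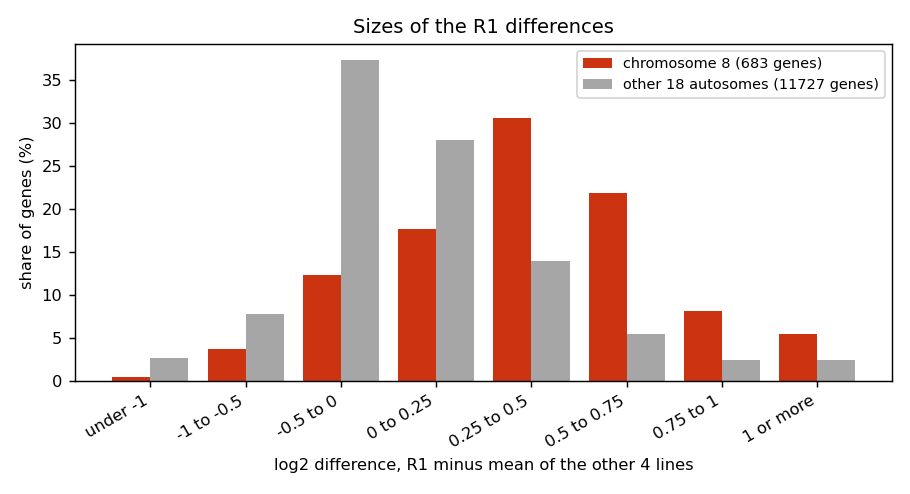
Share of genes (%) in each range of the log2 difference between R1 and the mean of the other 4 lines, for 683 chromosome 8 genes (red) and 11727 genes of the other 18 autosomes (grey). The ranges are unequal in width; the tallest red bar spans 0.25 to 0.5 and the tallest grey bar -0.5 to 0.

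Probe sets that the choice of members left aside were read on the same arrays. The kept genes had 725 further probe sets with a single symbol, of which 537, from 313 genes, passed the limit on low values. The median difference of these 537 in R1 was 0.39, and 452 of them (84.2%) lay above 0. Over all 725, without that limit, the R1 median was 0.31 and 77.7% lay above 0. In the other 4 lines the medians of these 537 probe sets were -0.03 in AH129-5, -0.13 in AH129-N1, -0.18 in AH129-NC1 and -0.02 in CS1-1.

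The R1 difference held against each line by itself. The median over the 683 genes was 0.35 against AH129-5, 0.37 against AH129-N1, 0.45 against AH129-NC1 and 0.34 against CS1-1. Genes of the other 18 autosomes had medians of -0.01, 0.02, 0.05 and -0.03 in the same comparisons, which all share the R1 arrays. Against CS1-1, the other diploid line with no stated sort, 353 members were higher (51.7%) and 50 lower (7.32%), where 22.7% and 24.1% of all genes tested were. Against AH129-5, 363 were higher (53.1%) and 68 lower (9.96%), where 25.5% and 25.6% of all genes tested were.

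Along the chromosome, R1 was higher from end to end. In 10 consecutive groups of 68 or 69 kept genes, the R1 median ran from 0.31 in the second group (Atp7b to Dctn6) to 0.44 in the eighth (Hsd11b2 to Fcsk). Each of these groups held between 35 and 49 genes called higher, or 51.5% to 71.0%. Taken array by array, the 30 group medians of the 3 R1 arrays lay between 0.30 and 0.49. A running median over 31 consecutive genes stayed above 0 in all 653 windows, with its lowest value of 0.20 around Gcsh, at order 580, and its highest of 0.59 around Pla2g15, at order 504. The longest unbroken stretch of genes called higher held 14 genes, from Vps4a to Dhx38. At the ends of the order, Insr, the insulin receptor, which comes first, differed by -0.16 ± 0.13 (SE, adjusted p = 0.329, limma), and the last gene, 2610044O15Rik8, by 0.22 ± 0.20 (adjusted p = 0.400).

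**Figure D3:**
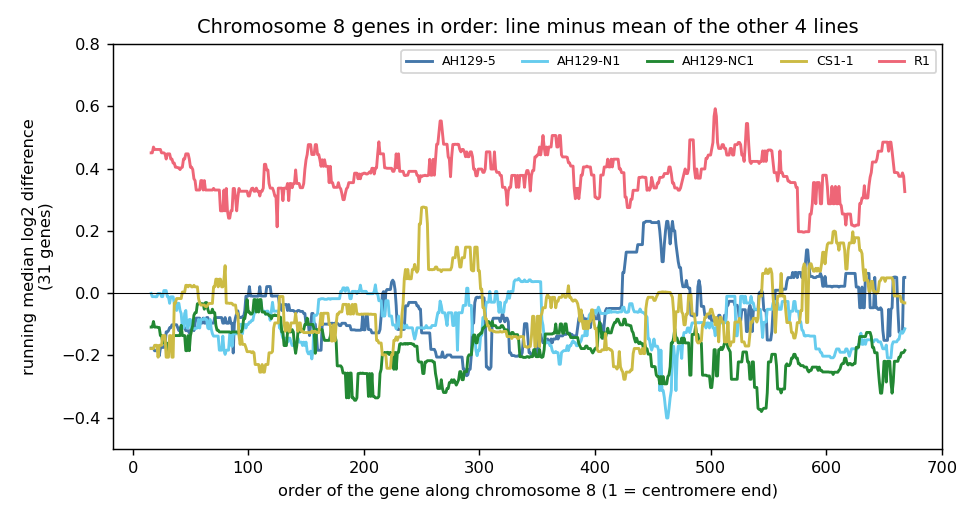
Running median over 31 consecutive kept genes of the log2 difference between each line and the mean of the other 4, plotted against the order of the gene along chromosome 8. The R1 curve stays between 0.20 and 0.59, and the curves of the other 4 lines stay at or below 0.28.

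By role, the lists are read against the chromosome as a whole in R1 (61.9% called higher, median 0.39) and against all genes tested (25.1%, median 0.02). No list was tested against the rest of the chromosome, so a list near those chromosome values gives no result about its role. Genes of the naive state and the early embryo were higher in 7 of 7 kept members, and their median of 0.45 lay near that of the chromosome. Zfp42 read 14.06, 14.06 and 14.09 on the R1 arrays (log2 signal). It read 13.06, 13.13 and 13.15 in AH129-5, 13.64, 13.53 and 13.52 in AH129-N1, 13.80, 13.78 and 13.82 in AH129-NC1, and 13.13, 13.17 and 13.12 in CS1-1. No array of another line reached the R1 values, and the difference was 0.67 ± 0.03 (log2 ± SE, 1.59-fold, adjusted p = 4.87e-12, limma).

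Cdh1 read 13.42, 13.49 and 13.36 in R1, and the other 12 arrays ran from 12.45 to 13.11 with a median of 12.89. The ranges did not overlap (0.60 ± 0.07, adjusted p = 7.43e-07, limma). With MEF and round sperm added to the fit its adjusted p was 0.0522. Triml1, a tripartite motif protein of the early embryo and the neighbour of Zfp42 among the kept genes, read 11.31, 11.43 and 11.43 in R1 against 10.13 to 10.86 elsewhere (0.88 ± 0.06). Klf2 read 13.43, 13.32 and 13.48 in R1 and reached 13.34 in AH129-N1, so the ranges overlapped, and the difference was 0.26 ± 0.04. Sall1, a zinc finger partner of the pluripotency factors, differed by 0.45 ± 0.10 with overlapping ranges. Smad1, which carries the BMP signal, differed by 0.34 ± 0.07, and its highest array, at 10.30, belonged to CS1-1. Tcf25 was also in this list and was higher. Pou5f1, Nanog and Sox2, the core pluripotency factors, which lie on other chromosomes, had R1 means of 13.62, 13.79 and 13.22, within 13.58 to 13.68, 13.63 to 13.86 and 12.94 to 13.38 in the other 4 lines.

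Chromatin and transcription genes were higher in R1 in 18 of 21 kept members and lower in none (61.9% and 4.54% over chromosome 8, 25.1% and 23.2% over all genes), with a median of 0.36, slightly below the 0.39 of the chromosome. Smarca5, the motor of ISWI chromatin remodelling complexes, read 13.85, 13.88 and 13.87 in R1 and 13.34 to 13.69 on the other 12 arrays (0.38 ± 0.05). Ctcf, the factor that anchors chromatin loops, read 12.47, 12.37 and 12.47 in R1 and at most 12.26 elsewhere (0.31 ± 0.04). Both genes were separated from every other array by small steps. Prmt7, an arginine methyltransferase, had the largest difference of the list at 0.83 ± 0.07, with its R1 arrays at 10.80, 10.74 and 10.77 just above the highest other array at 10.72. Ddx39a, an RNA helicase, differed by 0.65 ± 0.04, the splicing factor Sf3b3 by 0.55 ± 0.05 and Sap30, a subunit of the Sin3 histone deacetylase complex, by 0.39 ± 0.04, all with ranges that did not overlap. The 3 genes that did not pass were Gse1 at 0.11 (0.36 without CS1-1 in the reference, where it passed), Ing2 at 0.30 and Cbfa2t3 at 0.00.

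Genes of the cell cycle, replication and repair had a median of 0.45 in R1, where 20 of 23 rose, 1 fell and 2 missed the threshold. Mcm5, a subunit of the replicative helicase, read 14.05, 14.11 and 14.07 in R1 and 13.44 to 13.70 on the other 12 arrays (0.47 ± 0.04). Cdt1, which loads that helicase, stood at 14.19, 14.16 and 14.13 in R1. CS1-1 came close to it, the highest other array being at 14.09 (0.51 ± 0.04), and with all 21 arrays in the fit its adjusted p was 0.0776. Orc6, of the origin recognition complex, differed by 0.41 ± 0.04, the DNA polymerase Polb by 0.53 ± 0.06 and Fanca, a Fanconi anaemia protein, by 0.69 ± 0.07. Ranges overlapped for Polb, where CS1-1 reached 10.80 and the lowest R1 array stood at 10.77. The lower gene was Neil3, a DNA glycosylase, at -0.62. The haploid lines had been sorted in G0/G1, and the part of the sort in these genes was not tested. This list was not summarised against CS1-1 alone, the line that like R1 has no stated sort.

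The immediate early genes, which growth factors switch on within minutes, had the largest median of the lists. All 5 kept members were higher in R1 than the mean of the other lines. Their median of 0.74 is the value of Jund, which depends on the probe set. Klf2, at 0.26, is also counted with the genes of the naive state. Junb, a subunit of the AP-1 transcription factor, read 9.66, 9.60 and 9.39 in R1. It read 8.19, 7.98 and 7.90 in AH129-5, 7.78, 7.68 and 7.64 in AH129-N1, 8.35, 8.21 and 8.16 in AH129-NC1, and 7.52, 7.93 and 8.02 in CS1-1. R1 was thus above every other array, by 1.61 ± 0.11 (3.04-fold, adjusted p = 1.62e-10, limma). Ier2, a nuclear protein of the same response, read 13.30, 13.30 and 13.17 in R1 and 11.27 to 12.43 elsewhere (1.33 ± 0.04, 2.51-fold). Dusp4, a phosphatase that acts on MAP kinases, differed by 0.70 ± 0.13 with overlapping ranges, and by 0.37 with AH129-N1 left out of the reference. R1 was not the highest line for Dusp4: AH129-5 read 9.27, 9.09 and 8.87, and R1 8.85, 8.92 and 8.74. Jund, another AP-1 subunit, differed by 0.74 ± 0.05 on its brightest probe set but by -0.55 as the mean over its probe sets, where it did not pass (adjusted p = 0.158, limma).

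Stress and metal response genes had a median of 0.40 in R1, where 9 of 13 rose, 1 fell and 3 missed the threshold. Dnajb1, an HSP40 chaperone, read 12.07, 12.01 and 11.90 in R1 and 11.06 to 11.35 on the other arrays (0.79 ± 0.05). Psmd7, a proteasome subunit, differed by 0.54 ± 0.05 and Nqo1, a quinone reductase, by 0.48 ± 0.07. For Nqo1 the ranges overlapped, since AH129-NC1 reached 10.10 and R1 stood at 9.99, 9.86 and 10.04. Prdx2, a peroxiredoxin, differed by 0.34 ± 0.04. As means over probe sets, Psmd7 differed by 0.06 and Prdx2 by -0.07, and neither passed (adjusted p = 0.813 and 0.568, limma). The metallothioneins Mt1 and Mt2, neighbouring near-copies whose probes may not tell them apart, both differed by 0.00. Herpud1, of the unfolded protein response, was lower (-0.55 ± 0.10). Its R1 arrays, at 9.09, 8.89 and 8.72, overlapped the others. Without AH129-5 in the reference the difference was -0.17 and missed the threshold (adjusted p = 0.169, limma).

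Genes of metabolism were higher in 17 of 20 and lower in none (61.9% and 4.54% over chromosome 8, 25.1% and 23.2% over all genes), with a median of 0.37 beside the 0.39 of the chromosome. Msmo1, an enzyme of cholesterol synthesis, differed by 0.69 ± 0.04, although CS1-1 arrays reached 12.37 and R1 stood at 12.08, 12.10 and 12.14. Got2, the mitochondrial aspartate aminotransferase, differed by 0.40 ± 0.04, Aprt, which salvages adenine, by 0.34 ± 0.04, the proton pump subunit Atp6v1b2 by 0.36 ± 0.04, and the amino acid transporter Slc7a5 by 0.17 ± 0.04. Ranges overlapped for Atp6v1b2, where AH129-5 reached 12.22 and the lowest R1 array stood at 12.18. They overlapped for Slc7a5 too, where CS1-1 reached 12.44 and R1 12.43. Got2 and Atp6v1b2 did not pass as means over probe sets (adjusted p = 0.210 and 0.495, limma), nor did Slc7a5 with AH129-NC1 left out of the reference (adjusted p = 0.339). The 3 that did not pass in the comparison with all 4 lines were Asah1, Lamp1 and Mlycd, 2 lysosomal proteins and a malonyl-CoA enzyme, at -0.07, -0.04 and 0.02.

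Growth factor signalling genes were higher in 11 of 14 and lower in none (median 0.56). The count includes Lsm4, an RNA-binding protein of the splicing machinery that does not belong to signalling by its known role (0.64 ± 0.06). Gab1, a docking protein of receptor tyrosine kinases, read 13.09, 12.93 and 13.02 in R1 and 12.26 to 12.82 elsewhere (0.47 ± 0.04). Vegfc, a ligand of lymphatic vessel growth, differed by 0.58 ± 0.06 with overlapping ranges, since AH129-NC1 reached 10.22. Gas6, a ligand of TAM receptors, did not pass at 0.21 ± 0.11, but passed without AH129-5 (0.32) or AH129-NC1 (0.42) in the reference. Its lowest line was CS1-1, at 7.76, 7.31 and 7.69, and R1 read 8.56, 8.71 and 8.81. R1 was not the highest line: AH129-NC1 read 9.11, 8.94 and 9.27.

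**Figure D4:**
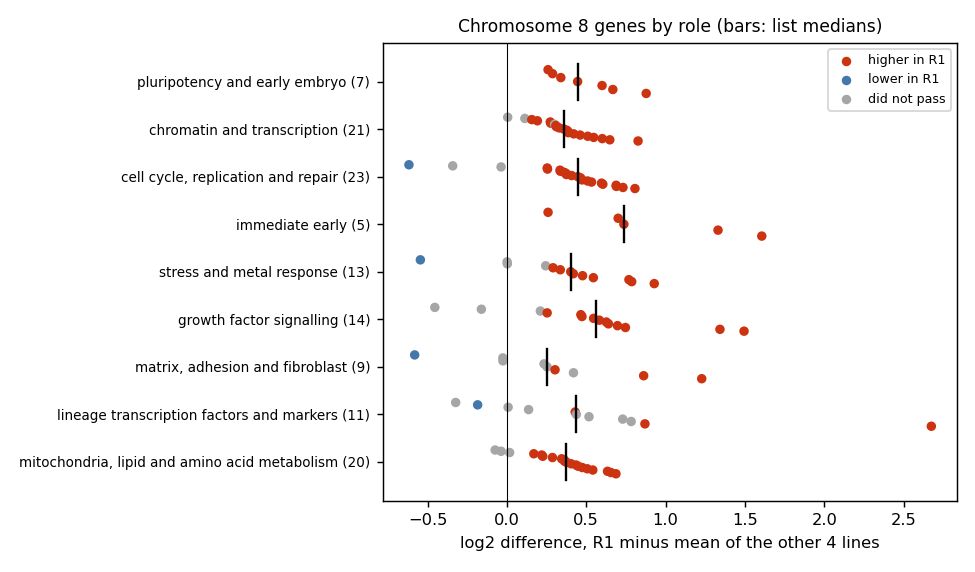
Log2 difference between R1 and the mean of the other 4 lines for each kept chromosome 8 gene of 9 lists by role, with the number of genes in parentheses; the bars are list medians and colours give the call. The 9 medians lie between 0.25 and 0.74, and the points on the left are few.

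Matrix, adhesion and fibroblast genes were less uniform, with a median of 0.25, and 3 of 9 rose while 1 fell. Cdh11, a cadherin of mesenchymal cells, had a mean of 8.90 in R1 (lowest array 8.70), and read 7.75 to 8.84 in the haploid lines and 5.10, 5.26 and 5.13 in CS1-1. Its difference of 1.23 ± 0.12 fell to 0.39 with CS1-1 left out of the reference. Pdgfrl, a receptor-like protein of fibroblasts that was listed with the signalling genes, differed by 1.49 ± 0.19, and by 0.84 without CS1-1. Col4a2, a chain of basement membrane collagen, passed narrowly (0.30 ± 0.10, adjusted p = 0.0202, limma), and differed by -0.01 without CS1-1 and by 0.25 without R1 replicate 3 (adjusted p = 0.118). With all 21 arrays in the fit its adjusted p was 0.103. Palld, an actin-binding protein, was higher with no overlap (0.86 ± 0.06). Lpl, lipoprotein lipase, was lower (-0.58 ± 0.08, and -0.21 without AH129-5), and Plat, the tissue plasminogen activator, differed by -0.03 ± 0.10, but by 0.51 without AH129-5 and by -0.69 without CS1-1, both of which passed.

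Fibroblast markers were measured beside these genes. All 10 of the fibroblast markers lay above the 40th percentile in every ES line, and also in MEF and in round sperm. Their summed signal (log2) was 15.31 to 15.35 in R1, 15.11 to 15.30 in AH129-5, 14.93 to 15.12 in AH129-N1, 14.82 to 14.86 in AH129-NC1, 14.20 to 14.27 in CS1-1 and 17.31 to 17.32 in MEF. The sum adds signals before the log2 is taken, so the brightest markers weigh most in it. Fn1 had its highest ES mean in CS1-1, at 14.01, while every other marker had its lowest ES mean there. Col1a2, for example, had a mean of 9.95 in CS1-1 and 12.65 to 13.32 in the other ES lines. The part of the fibroblast markers in the result was not tested, and in bulk RNA fewer cells of a type and less RNA per cell cannot be told apart. R1 and AH129-5 lay closest in this sum, and the chromosome 8 median between them was 0.35, but single markers differed both ways. Acta2 had means of 11.56 in R1 and 9.93 in AH129-5, and Dcn 10.13 and 10.33. The pair is thus not matched for fibroblast signal and is no test of its part. All 8 ES cell markers were above the 40th percentile in every ES line, with summed signals of 15.85 to 16.21. Of the 8 spermatid markers, all were above it in round sperm, none in AH129-5, AH129-N1 and R1, and 1 each in AH129-NC1 and CS1-1. Of the 8 ES markers 1 was above it in MEF and 4 in round sperm.

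Lineage factors and markers had a median of 0.44, and 3 of 11 rose while 1 fell. Calb2, the calcium-binding protein calretinin of neurons, read 9.56, 9.52 and 9.49 in R1, 7.91, 8.11 and 8.42 in CS1-1 and 5.21 to 7.03 in the haploid lines (2.67 ± 0.26, 6.38-fold). Tubb3, the neuronal tubulin, passed as lower by a small margin (-0.18 ± 0.07, adjusted p = 0.0269, limma), and did not pass without R1 replicate 1 (-0.15, adjusted p = 0.144) or R1 replicate 2 (-0.18, adjusted p = 0.0768). Nor did it pass with all 21 arrays in the fit (adjusted p = 0.407), or with AH129-5 (-0.10, adjusted p = 0.254), AH129-N1 (0.06, adjusted p = 0.497) or AH129-NC1 (-0.02, adjusted p = 0.839) left out of the reference. With CS1-1 left out it differed by -0.68. Sox1, a factor of the early neural plate, missed the threshold at 0.78 ± 0.39 (adjusted p = 0.110), but passed at 0.94 without AH129-NC1 replicate 2 (adjusted p = 0.0324). Maf, a basic leucine zipper factor, lay at the threshold (0.73 ± 0.30, adjusted p = 0.0502) and passed without any 1 of the 3 CS1-1 arrays, AH129-5 replicate 3 or AH129-N1 replicate 1 (0.61 to 0.81).

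A few genes rose far more in R1 than the chromosome as a whole. Rrad, a small GTP-binding protein that restrains calcium channels, read 8.97, 8.99 and 8.05 in R1. It read 6.20, 5.44 and 5.89 in AH129-5, 3.50, 4.66 and 5.67 in AH129-N1, 5.91, 4.12 and 3.75 in AH129-NC1, and 4.33, 5.46 and 4.32 in CS1-1. In 3 of these 4 lines the level was near background, and R1 was at least 8.71-fold higher (fitted log2 difference 3.73 ± 0.44). Those 3, AH129-N1, AH129-NC1 and CS1-1, could not have admitted Rrad to the set. It entered through R1, where it was high, so its rise there is set in part by the rule. Of the other lines only AH129-5, whose lowest array read 5.44, could also have admitted it. A level counts as near background when the group mean is at or below the mean 40th percentile of its arrays. Ccl25, a chemokine of thymus and gut, read 10.14, 10.31 and 10.17 in R1 and 6.68 to 7.66 on the other 12 arrays (3.04 ± 0.14, 8.21-fold, adjusted p = 8e-13, limma). As the mean over its probe sets it differed by 1.68. MEF and round sperm, at means of 6.88 and 6.94, were no higher than the other ES lines for this gene. Cpe, carboxypeptidase E of hormone processing, rose by 2.07 ± 0.08 on the log2 scale (1.10 over its probe sets), and Crispld2, a secreted protein near background in AH129-N1 and CS1-1, at least 4.28-fold.

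The 31 genes lower in R1 lay scattered through the order, and 1 stretch of 3 neighbours was among them. This was Kcnu1, Hgsnat and Pomk, at orders 110 to 112, an ion channel of sperm, a lysosomal acetyltransferase and a kinase that modifies dystroglycan, at -0.53 ± 0.17, -0.58 ± 0.10 and -0.44 ± 0.11. The second of the 10 groups along the chromosome held 9 of the 31, the most of any. For 5 of the 31 the 3 R1 arrays lay below all others. Car5a, a mitochondrial carbonic anhydrase, read 5.97, 6.24 and 6.33 in R1, 7.10 to 7.69 in the other lines but AH129-5, and 8.71 to 8.98 in AH129-5 (-1.61 ± 0.12). Ido2, an enzyme of tryptophan breakdown, was at least 2.01-fold lower (-1.13 ± 0.19), and the lysosomal channel Mcoln1 differed by -0.62 ± 0.07, Hgsnat by -0.58 ± 0.10 and Rnf170, a ubiquitin ligase, by -0.38 ± 0.08. Over their probe sets Mcoln1 and Rnf170 did not pass (-0.25 and -0.07, adjusted p = 0.0625 and 0.785, limma).

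**Figure D5:**
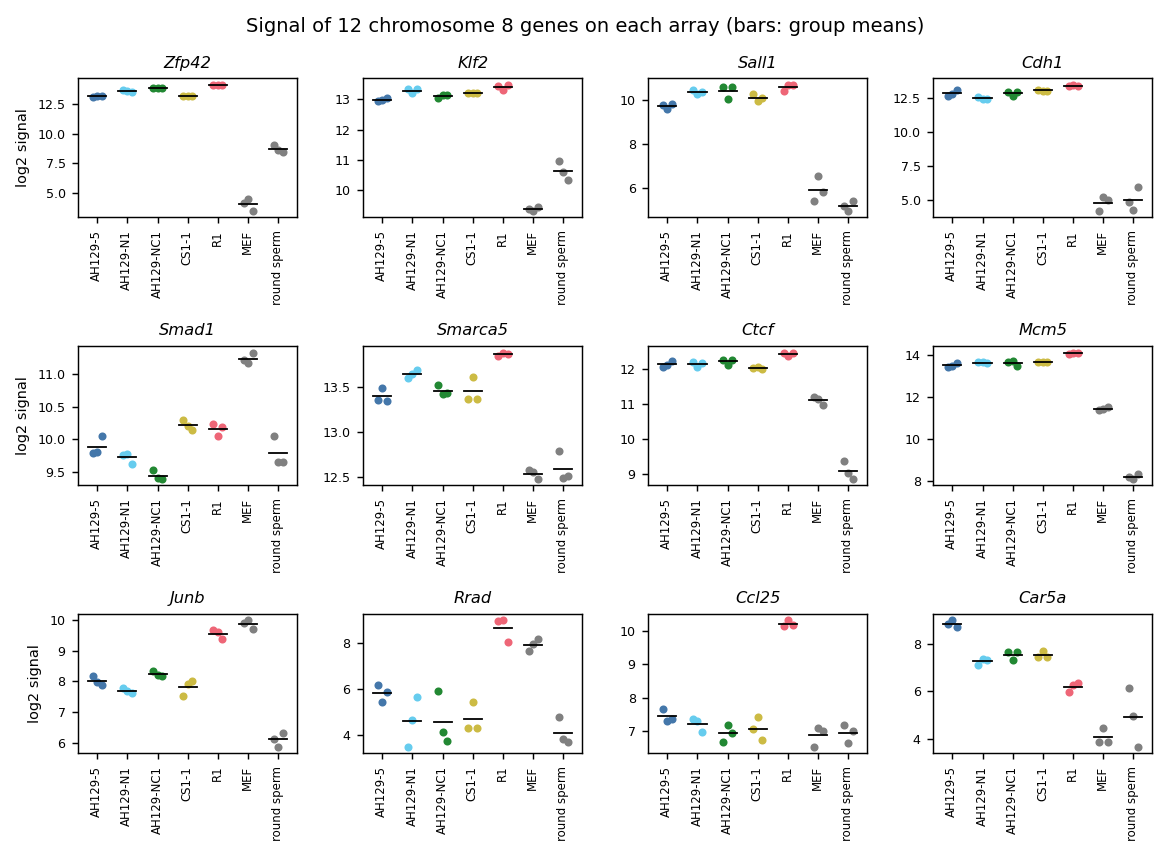
Log2 signal of 12 chromosome 8 genes on each of the 21 arrays, 3 per group, with bars at the group means; the scale differs between panels. R1 lies above all other ES arrays in 8 panels and below them for Car5a, and for Klf2, Sall1 and Smad1 it overlaps at least 1 other line.

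R1 is part of the mean that each of the other 4 lines was compared with. Their chromosome 8 medians were -0.06 in AH129-5, -0.09 in AH129-N1, -0.17 in AH129-NC1 and -0.05 in CS1-1. With R1 left out of the reference these became 0.04, -0.01, -0.09 and 0.03. In pairs that leave R1 out, the chromosome 8 median differed from that of the other autosomes by 0.003 to 0.04 in size. The counts of genes called higher and lower were 128 and 216 in AH129-5 (18.7% and 31.6%, against 25.6% and 22.4% of all genes tested), 75 and 201 in AH129-N1 (11% and 29.4%, against 20.6% and 19.9%), 71 and 272 in AH129-NC1 (10.4% and 39.8%, against 18.6% and 25%) and 163 and 220 in CS1-1 (23.9% and 32.2%, against 30.6% and 27%). With R1 out of the reference the counts were 156 and 133 in AH129-5 (22.8% and 19.5%, against 24.3% and 20.8% of all genes tested), 131 and 133 in AH129-N1 (19.2% and 19.5%, against 20.1% and 18.6%), 98 and 192 in AH129-NC1 (14.3% and 28.1%, against 18.7% and 25.1%) and 224 and 161 in CS1-1 (32.8% and 23.6%, against 31.9% and 27.5%). At 2-fold or more, 17 members were higher and 13 lower in AH129-5 (background 3.99% and 1.54%), 7 and 18 in AH129-N1 (1.37% and 2.11%), 10 and 21 in AH129-NC1 (2.38% and 1.61%), and 22 and 34 in CS1-1 (4.27% and 6.89%). The 3 arrays of a line lay above the other 12 for 30 members in AH129-5, 6 in AH129-N1, 12 in AH129-NC1 and 43 in CS1-1, or 4.39%, 0.878%, 1.76% and 6.3%, against 7.52%, 4.65%, 3.8% and 13.9% of all genes tested. They lay below for 33, 33, 65 and 68 members, or 4.83%, 4.83%, 9.52% and 9.96%, against 5.52%, 4.04%, 4.72% and 10.2%. The cell cycle list stood lowest in AH129-NC1, where 18 of 23 genes were lower and 1 was higher. Its median there was -0.31, beside -0.17 over chromosome 8 (39.8% lower) and -0.05 over all genes tested (25% lower). Of the 23, 10 were lower and 4 higher in AH129-5, and 9 lower and 4 higher in AH129-N1. The reference held R1, where 20 of the 23 were higher, and this list was not counted without R1.

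CS1-1 carried the largest falls of single genes on the chromosome. The matrix and fibroblast list was lower in 8 of 9 genes there, with a median of -1.03, where 32.2% of chromosome 8 and 27% of all genes tested were lower and the medians were -0.05 and 0.02. Cdh11 was at least 8.96-fold lower, Nfix, a nuclear factor I protein, at least 6.34-fold and Pdgfrl at least 2.98-fold, and none of their 3 CS1-1 arrays overlapped another ES array. Plat read 6.15, 6.13 and 6.14 in CS1-1 and 7.97 to 9.96 elsewhere (-2.47 ± 0.10, and -1.27 over its probe sets). MEF means were 13.90 for Cdh11, 12.51 for Nfix, 10.19 for Pdgfrl and 10.80 for Plat, and CS1-1 was also the line with the least summed fibroblast marker signal, whose part in these falls was not tested. Hsd17b2, a steroid dehydrogenase that MEF hold near background (4.39), was at least 2.28-fold lower as well, and Gm21283 fell by 2.18 ± 0.08. The largest rises were Gm10033, at least 1.88-fold, Nkx6-3, a homeobox factor of the stomach, at least 2.92-fold, Zmat4, at least 3.36-fold, and Sox1, at least 2.28-fold, each near background in 3 or 4 of the other lines. Gm10033 read 3.42 to 5.09 on the other ES arrays and entered the set through CS1-1, where it was high. Cyba, a subunit of the NADPH oxidase, read 11.42, 11.46 and 11.46 in CS1-1 and 9.33 to 10.89 on the other arrays (1.47 ± 0.05, 2.77-fold), and Zfp869, 1 of 3 neighbouring zinc finger genes higher in CS1-1 with Zfp963 and Zfp866, which may share probes, rose by 1.63 ± 0.15.

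AH129-5 had its own set of high genes. Plat read 9.56, 9.96 and 9.69 there against 6.13 to 8.63 elsewhere (2.02 ± 0.10, 4.06-fold, and 1.33 over its probe sets). Lpl read 11.76, 11.70 and 11.75 against 9.53 to 10.85 (1.53 ± 0.08), Herpud1 10.58, 10.47 and 10.65 against 8.56 to 9.36 (1.54 ± 0.10), and Car5a 8.84, 8.98 and 8.71 against 5.97 to 7.69 (1.72 ± 0.12). Hpgd, which inactivates prostaglandins, rose 2.91-fold and Best2, a chloride channel, at least 2.12-fold. Best2 read 3.86 to 5.15 on the other ES arrays, near background, and entered the set through AH129-5, where it was high. On the low side, Kbtbd11, a kelch protein, differed by -1.47 ± 0.05 (but by -0.54 over its probe sets, with adjusted p = 0.260, limma), Ckap2, of the mitotic spindle, by -1.42 ± 0.05, and Fat1, a giant cadherin, by -1.07 ± 0.04. Plekha2, Camsap3, a binder of microtubule ends, and Irf2bp2 were lower by -1.02, -0.94 and -0.84 (Plekha2 and Irf2bp2 by -0.54 and -0.29 over their probe sets). Along the chromosome, the running median of AH129-5 ran from -0.27 around Colgalt1 to 0.23 around Cfap20.

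In AH129-N1, Ier2 and Dusp4 were lowest of all lines, at 11.27, 11.37 and 11.35 for Ier2 against 11.86 to 13.30 elsewhere (-1.07 ± 0.04) and -1.43 ± 0.13 for Dusp4. Of the 5 immediate early genes 4 were lower in this line and Klf2 was higher. Over chromosome 8, 29.4% were lower and 11% higher, and over all genes tested 19.9% and 20.6%. The reference held R1, where Junb, Ier2 and Jund were highest, and this list was not counted without R1. Apela, a peptide hormone of the early embryo, read 10.11, 9.98 and 10.23 against 10.77 to 12.13 (-1.19 ± 0.05), and R1, at a mean of 12.04, held its highest level. Ifi30, a lysosomal thiol reductase, differed by -1.05 ± 0.05, Coq9, of coenzyme Q synthesis, by -1.07 ± 0.09 and the exchanger Slc9a5 by -1.04 ± 0.18, the last at least 2.04-fold. Over their probe sets Coq9 and Slc9a5 did not pass (adjusted p = 0.505 and 0.104, limma). The rises there were Nat1, an acetyltransferase with the close copy Nat2 beside it, at least 2.09-fold, Ushbp1 (1.11 ± 0.17), Tubb3 (0.97 ± 0.07, and 0.55 without CS1-1 in the reference), Ttc29, at least 1.65-fold, Galnt7 (0.49 ± 0.10, and 0.21 over its probe sets) and Rab3a (0.44 ± 0.10). Rab3a, a GTPase of secretion, did not pass without _x_at and _s_at probe sets (0.06, adjusted p = 0.851, limma), with all 21 arrays in the fit (adjusted p = 0.510) or when its probe sets were averaged (0.25, adjusted p = 0.191).

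In AH129-NC1, Stox2 read 10.17, 10.16 and 10.32 against 8.30 to 9.41 (1.46 ± 0.08, and 0.73 over its probe sets), and Cpne2, a calcium-dependent membrane binder, was at least 4.19-fold higher. Hsd17b2 was at least 2.65-fold higher, Pgbd5, a transposase-derived gene, differed by 1.02 ± 0.09, Il34, a ligand of the CSF1 receptor, by 0.83 ± 0.15 and Ubxn8 by 0.68 ± 0.09. Ufsp2, a protease of the UFM1 pathway, read 7.98, 7.96 and 7.56 against 8.41 to 9.94 (-1.44 ± 0.09). Hook2, a microtubule linker, differed by -1.30 ± 0.09, Tmem170 by -1.28 ± 0.10 (-0.76 over its probe sets), Cyba by -1.11 ± 0.05 and the receptor Adgrl1 by -1.09 ± 0.13. Best2 was near background in this line, at 3.90, 4.04 and 3.86, and no fold is given. Without AH129-5 in the reference it did not pass (-0.58, adjusted p = 0.182, limma). AH129-NC1 had the longest stretch of neighbours called lower, 10 genes from Txnl4b to Calb2. The reference held R1, and stretches were not counted without R1. The stretch is thus not shown to be particular to AH129-NC1. For Calb2, the last gene of the stretch, the AH129-NC1 arrays lay within the range of the AH129-5 arrays, and R1 and CS1-1 were higher.

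The R1 shift stood out against cells that are not ES cells as well. MEF minus R1 had a chromosome 8 median of -0.48 and a median of -0.15 over the other 18 autosomes. MEF minus the other 4 lines gave -0.14 and -0.16 for AH129-5, -0.12 and -0.14 for AH129-N1, -0.04 and -0.10 for AH129-NC1, and -0.12 and -0.20 for CS1-1. For round sperm the pair was -1.24 and -0.75 against R1, and from -0.88 to -0.72 and from -0.80 to -0.71 against the other lines. Levels of single members differed widely between cell types. Zfp42 had means of 4.08 in MEF and 8.71 in round sperm, Cdh1 of 4.80 and 5.02, and Mcm5 of 11.43 and 8.20.

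RefSeq start regions (GRCm38.p6) were found for 478 of the 683 genes, and the first region listed for a gene was used, over its 250 bases before the start, on both strands. The GC box GGGCGG was present in 61.0% of 308 regions of genes called higher, 59.9% of 157 with no call and 7 of 13 called lower. It was in 49.9% of 14452 genes of the array and in 32.9% of 27025 regions of the whole table. CCAAT was present in 38.6%, 31.8% and 5 of 13, and in 35.7% of the array's genes. The TATA box TATAAA was in 6.49%, 4.46% and 0 of 13 (9.02% on the array), the cyclic AMP response element TGACGTCA in 3.57%, 4.46% and 0 of 13 (2.27%), and the AP-1 site TGAGTCA in 2.92%, 4.46% and 1 of 13 (3.83%). None of these 5 motifs contains another. Median GC content was 60.4% in the regions of genes called higher and 61.6% in those with no call, against 57.6% on the array. These shares are descriptions, and a match is not a site shown to be bound.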

How the data were processed

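Total RNA of 21 samples had been labelled and hybridised to Affymetrix GeneChip arrays, 1 array a sample. Per array, the authors deposited MAS5 signals as log2, for 45101 probe sets; MAS5 is named, without a version, in the submitters' processing notes. The log2 base was taken from the values: the mean signal after trimming 2% at each end was 500 on every array. Values ran from 0 to 15.7. Depth has no meaning here, and 3 arrays a group limit the precision.

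The platform annotation gave 34945 probe sets with 1 gene symbol, 932 with several and 9160 with none, besides 64 controls. The 34945 covered 18193 genes. RefSeq (GRCm38.p6) gave chromosome and order for 18145 of them by gene ID or symbol; the deposited values name no build, so its coordinates served for order only, apart from the printed start regions. An offset of 9.70 signal units (median 20th percentile) was added before log2. The test was limma (version 3.58.1, with statmod 1.5.0 under R 4.3.3) over the 15 ES arrays with 1 mean per line, trend and robust moderation, 2-sided. The workflow was tested on simulated data.

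The members and lists were chosen with earlier results of these data known. Named were the 6 largest rises and falls per line with no overlap, up to 5 list members by adjusted p, 7 set genes, ends of the order, genes beside the filter, and runs of 3 or more called against the median; examples of each are given. Other genes named with a value were chosen after their values were seen.

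Replicate numbers did not pair the arrays: deviations from line means correlated at -0.05 to 0.03 for equal numbers.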

Additional observations from a re-analysis of the deposited data

How the results depend on the processing

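The R1 shift kept its direction under every alternative run. Its median moved to 0.40 at offset 1, 0.33 at offset 50, 0.40 with the filter at the 60th percentile, 0.31 with no filter, 0.38 with arrays centred on their medians, 0.37 as means over probe sets, and 0.39, 0.35 and 0.39 without AH129-5, AH129-NC1 and CS1-1 in the reference. Against AH129-5, AH129-N1, AH129-NC1 or CS1-1 alone, an alternative added after seeing the data, it was 0.35, 0.37, 0.45 and 0.34, and 68 genes were lower against AH129-5 and 50 against CS1-1. The medians of the other lines followed the reference: without R1 they were 0.039 in AH129-5, -0.00744 in AH129-N1, -0.089 in AH129-NC1 and 0.034 in CS1-1. In AH129-5 the median was -0.10 at the 60th percentile, -0.031 with no filter, -0.088 centred, -0.11 by quantiles, and -0.10 and -0.11 without AH129-N1 and AH129-NC1. In AH129-N1 it was -0.063 centred, and -0.12 and -0.14 without AH129-5 and AH129-NC1. In AH129-NC1 it was -0.16 at offset 50, -0.15 with no filter, -0.11 centred, -0.14 by quantiles, -0.18 as means over probe sets, -0.18 without _x_at and _s_at probe sets, and -0.19, -0.22 and -0.20 without AH129-5, AH129-N1 and CS1-1. In CS1-1 it was -0.034 at the 60th percentile, -0.032 as means over probe sets, -0.11 centred, and -0.084 and -0.081 without AH129-N1 and AH129-NC1. Genes higher in AH129-N1 numbered 44 of 647 as means over probe sets and 45 of 683 with all 21 arrays in the fit. Without R1 they numbered 131 (19.2%, against 20.1% of all genes tested). In AH129-NC1, 47 of 683 were higher with all arrays and 45 of 683 without CS1-1. Shares over all genes were not taken for the probe set means, all arrays or the reference without CS1-1. Genes lower without R1 numbered 133 in AH129-5 (19.5%, against 20.8%) and 133 in AH129-N1 (19.5%, against 18.6%). The causes were not tested.

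For the fits that follow, shares over all genes were not taken, so the counts show only how the calls moved. Leaving out 1 array at a time, R1 had 389 to 424 genes higher, 26 to 34 lower and medians of 0.37 to 0.40. AH129-5 had 102 to 133, 183 to 221 and -0.070 to -0.054, AH129-N1 had 54 to 73, 165 to 206 and -0.10 to -0.081, AH129-NC1 had 58 to 73, 223 to 277 and -0.18 to -0.16, and CS1-1 had 135 to 165, 191 to 224 and -0.060 to -0.023. With the replicate number as a block, R1 had 421 higher and 31 lower, with a median of 0.39; equal numbers did not mark pairs, and 1 of 15 arrays correlated best with its own number.

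Of the named genes, Jund (-0.55) and Prdx2 (-0.075) turned as means over probe sets, Plat (0.51) without AH129-5, Col4a2 (-0.015) without CS1-1 and Tubb3 (0.062) without AH129-N1, all in R1. Each line is a single line with 3 arrays, probe sets near background give only bounds, and DNA copy number was not measured.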
